A study of Mus musculus with 8 samples.

Results

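The *Reg* (regenerating islet-derived) genes encode small secreted proteins with a C-type lectin fold. Of the 48709 genes with a value in each library, the 7 family members named *Reg1*, *Reg2*, *Reg3a*, *Reg3b*, *Reg3d*, *Reg3g*, and *Reg4* were taken by symbol. A test was made for 6 of them, and *Reg4* did not reach the minimum level. Pancreata of male mice aged 8 weeks were taken 24 hours after i.p. injection and sequenced, with 2 libraries in each of 4 groups. WT saline and cKO saline mice received normal saline. WT FAEE-SAP and cKO FAEE-SAP mice received palmitoleic acid (POA) together with ethanol, a model of alcohol-related severe acute pancreatitis in which fatty acid ethyl esters form. In cKO mice (*Pfkfb3* fl/fl with *Pdx1*-Cre, the floxed allele made in C57BL/6J mice), Cre driven by the *Pdx1* promoter deletes exons of *Pfkfb3*, a regulator of glycolysis, in cells of the pancreatic lineage, so endocrine cells can be affected as well as acinar cells. WT mice were bought and cKO mice were bred by the study, so genotype and the source of the mice cannot be told apart.

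In the healthy pancreas, acinar cells make and secrete the REG1 and REG2 proteins, also known as lithostathines or pancreatic stone proteins. The type III genes *Reg3a*, *Reg3b*, *Reg3d*, and *Reg3g* are best known from inflamed pancreas and from gut epithelium. REG3B is the classic pancreatitis-associated protein, REG3G is a lectin that kills gram-positive bacteria, and *Reg3d* codes for a relative of the islet neogenesis-associated protein. *Reg4* is a gene of gut endocrine and secretory cells. Cytokines that signal through STAT3, such as IL-6 and IL-22, are known inducers of the type III genes, and the glycosyltransferase EXTL3 has been described as a receptor for REG proteins.

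The 6 tested members lie side by side on chromosome 6 of GRCm38, within 98.2 kb from 78370657 to 78468872 by GENCODE vM21. *Reg3b* comes first, from 78370657 to 78373466, followed by *Reg3d* (78375874 to 78378865, minus strand) and *Reg3a* (78380709 to 78383827). *Reg2* (78395623 to 78408106) and *Reg1* (78422711 to 78428667) follow, and *Reg3g* (78466269 to 78468872, minus strand) closes the cluster. *Reg4* lies apart on chromosome 3, from 98222156 to 98236748. The coding sequences are alike in length, with 165 codons in *Reg1*, 173 in *Reg2*, 174 in *Reg3g*, and 175 in *Reg3a*, *Reg3b*, and *Reg3d*. *Reg1* and *Reg2* were 78.7% identical over their aligned coding bases, and *Reg3b* and *Reg3g* were 75.9% identical. *Reg3a* shared 73.6% with *Reg3b* and 73.3% with *Reg3g*, while *Reg3d* shared 66.2% to 68.0% with the other type III genes. No stretch of 50 bases was shared between the annotated transcripts of any 2 members, and the longest identical run within coding sequence was 35 bases, between *Reg3b* and *Reg3g*, so reads of 50 or more bases that match perfectly are not shared between members.

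The 250 bases before the RefSeq transcription start are shown for *Reg1*, the most abundant member in saline, for *Reg2*, the member whose treatment change passed the test for a genotype difference, for *Reg3b*, which holds a STAT-type match, and for *Reg3g*, the member with the largest fitted difference between genotypes in saline. The windows come from RefSeq on GRCm38.p6, run 5′ to 3′ on the strand of the gene, and lie at chr6:78425733-78425982 (+) for *Reg1*, chr6:78404905-78405154 (+) for *Reg2*, chr6:78370635-78370884 (+) for *Reg3b*, and chr6:78468875-78469124 (−) for *Reg3g*. For *Reg1*, *Reg2*, and *Reg3b* this start lies inside the GENCODE span. Capitals mark each match to TATAAA, or its reverse complement, and to the relaxed STAT motif TTCNNNGAA.
Reg1: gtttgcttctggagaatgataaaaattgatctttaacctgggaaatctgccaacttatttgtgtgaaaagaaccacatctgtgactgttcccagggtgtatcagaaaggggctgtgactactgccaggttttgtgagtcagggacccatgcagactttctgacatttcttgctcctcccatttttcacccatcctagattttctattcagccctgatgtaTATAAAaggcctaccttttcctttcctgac
Reg2: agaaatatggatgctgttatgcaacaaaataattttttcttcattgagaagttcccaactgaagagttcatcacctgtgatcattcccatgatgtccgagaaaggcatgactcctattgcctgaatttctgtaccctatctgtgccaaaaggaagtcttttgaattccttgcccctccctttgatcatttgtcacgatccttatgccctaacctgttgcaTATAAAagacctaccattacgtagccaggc
Reg3b: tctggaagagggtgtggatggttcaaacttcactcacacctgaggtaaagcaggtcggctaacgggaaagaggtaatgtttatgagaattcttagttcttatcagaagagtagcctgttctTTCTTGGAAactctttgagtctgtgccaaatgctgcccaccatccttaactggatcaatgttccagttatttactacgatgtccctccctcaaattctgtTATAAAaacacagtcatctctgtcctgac
Reg3g: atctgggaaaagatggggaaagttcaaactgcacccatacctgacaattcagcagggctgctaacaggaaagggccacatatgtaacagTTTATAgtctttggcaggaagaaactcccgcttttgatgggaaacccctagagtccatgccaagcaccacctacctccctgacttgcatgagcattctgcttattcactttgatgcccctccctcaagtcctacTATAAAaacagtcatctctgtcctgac

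All 7 members had such a window. TATAAA lay 30 to 25 bases before the start in *Reg1* and *Reg2*, 29 to 24 in *Reg3b*, and 27 to 22 in *Reg3g*, which also held its reverse complement from 161 to 156, and was not matched in *Reg3a*, *Reg3d*, or *Reg4*. It was matched in 12.4% of 32817 mouse promoter windows of the same length. TTCNNNGAA was matched once in *Reg3b*, as TTCTTGGAA from 129 to 121 bases before the start, and once in *Reg3d*, as TTCCCAGAA from 238 to 230, against 7.01% of all windows. The stricter TTCCNGGAA was matched in none of the 7 members and in 0.914% of all windows. CACCTG, an E-box of the kind bound by the acinar factor PTF1, was matched in *Reg2*, *Reg3a*, *Reg3b*, *Reg3d*, and *Reg4* (17.2% of windows). TTTCCC, the TC-box found with it in acinar promoters, was matched in *Reg1*, *Reg3b*, *Reg3d*, and *Reg3g* (21.9% of windows), and in *Reg3d* it overlapped the STAT-type match. The AP-1 motif TGANTCA was matched in *Reg1*, as TGAGTCA from 117 to 111 bases before the start, and in no other member (6.75% of windows). Each motif was searched on both strands. A match describes the sequence, and binding was not measured.

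Depth worked out from the smallest values was 22.8 to 37.6 M reads per library, and the *Reg* genes together held about 0.156 to 1.08 M reads in a library. RPKM is a share of the library, and digestive enzymes took 85.4% to 87.9% of the summed RPKM in saline, 64.1% and 66.8% in the WT FAEE-SAP libraries, and 79.9% and 80.1% in those of cKO. Levels are therefore given as scaled RPKM, the deposited RPKM divided by a factor per library (the median of its ratios to the geometric mean), which ran from 0.621 in a cKO saline library to 2.024 in a WT FAEE-SAP library. A member was called where the limma adjusted p was under 0.05, over 11133 genes tested, and the change was at least 2-fold. The smallest p an exact permutation of 2 against 2 libraries allows is 0.33, so none was used. With saline, scaled *Pfkfb3* was 1.70 and 1.69 in WT mice and 0.880 and 2.10 in cKO mice. With FAEE-SAP, it was 1.85 and 3.21 in WT mice and 1.74 and 2.82 in cKO mice. The genotypes overlapped, and whole-gene values do not test a deletion of a few exons, so genotype rests on the labels. In bulk tissue, fewer cells of a type and less RNA per cell cannot be told apart.

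Library 1 of cKO saline stood apart. Of 14 intestinal epithelium markers, 13 were highest there, and 5 were above 0 in no other library, among them *Fabp2* (8.89 scaled RPKM), *Alpi* (5.20), and *Sis* (0.775). The markers summed to 44.8 scaled RPKM in it and to between 1.23 and 3.26 in the other 7 libraries, in which 7 to 10 of the 14 were at 0. *Reg4* was found in this library and in no other, at 0.234 RPKM as deposited, about 9 reads. It was at 0 in the other 7, where 3 reads would equal an RPKM of 0.0902 to 0.129, so lower levels were not detectable at this depth. All tested members but *Reg1* were also higher in library 1 than in library 2 of cKO saline. The part of intestinal RNA in these values was not tested, and results that rest on the library are given with and without it.

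The levels of the members had the same outline in both genotypes given saline, with *Reg1* far above the rest and *Reg3a* and *Reg3g* lowest among those detected. With saline, *Reg1* read 9613 and 7011 scaled RPKM in the WT mice and 7344 and 7670 in the cKO mice. With FAEE-SAP, it read 7193 and 5368 in the WT mice and 9722 and 10160 in the cKO mice. Its genotypes overlapped in saline, and after FAEE-SAP both cKO libraries were above both WT libraries. In mean level the order in WT saline was *Reg1*, *Reg2*, *Reg3b*, *Reg3d*, *Reg3g*, and *Reg3a*, and the last pair overlapped. In cKO saline *Reg3d* stood above *Reg3b*, and *Reg3a* and *Reg3g* overlapped. In WT FAEE-SAP *Reg1* overlapped with *Reg2*, *Reg2* with *Reg3b*, and *Reg3a* with *Reg3d*. In cKO FAEE-SAP *Reg2* had the highest mean and overlapped with *Reg1*, and *Reg3b* came below both.

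*Reg2*, the close relative of *Reg1*, stood at 970.9 and 806.6 scaled RPKM in WT mice given saline, and at 343.5 and 328.9 in cKO mice. In FAEE-SAP it stood at 6138 and 4739 in WT mice, and at 9691 and 11160 in cKO mice. On this scale it was lowest in cKO saline and highest in cKO FAEE-SAP, and no 2 groups overlapped. As deposited, the FAEE-SAP groups overlapped, at 12420 and 9171 RPKM in WT mice and 10140 and 10890 in cKO mice.

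*Reg3b* stood at 771.4 and 566.6 scaled RPKM in WT mice given saline, and at 132.5 and 103.9 in cKO mice. In FAEE-SAP the values were 5881 and 4432 (WT) and 6086 and 8433 (cKO). Both saline groups were below both FAEE-SAP groups, and cKO saline was lowest. *Reg3d* had 385.9 and 307.5 scaled RPKM in the WT mice and 196.9 and 179.1 in the cKO mice with saline. In FAEE-SAP its values were 1099 and 902.7 (WT) and 1015 and 1506 (cKO). It had the narrowest range of the type III genes, and its FAEE-SAP groups overlapped.

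*Reg3a* had 51.4 and 38.7 scaled RPKM in the WT mice and 10.2 and 4.12 in the cKO mice with saline. In FAEE-SAP its values were 1739 and 959.2 (WT) and 1113 and 1700 (cKO). *Reg3g* had 40.6 and 55.3 scaled RPKM in the WT mice with saline. In the cKO mice it had 8.96 and 1.99, the widest spread within a group of any tested member (4.49-fold between the 2 libraries). In FAEE-SAP its values were 814.7 and 595.4 (WT) and 435.5 and 564.5 (cKO). For both genes the 4 saline libraries were below the 4 FAEE-SAP libraries, and the higher cKO saline value was that of library 1.

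**Figure D1:**
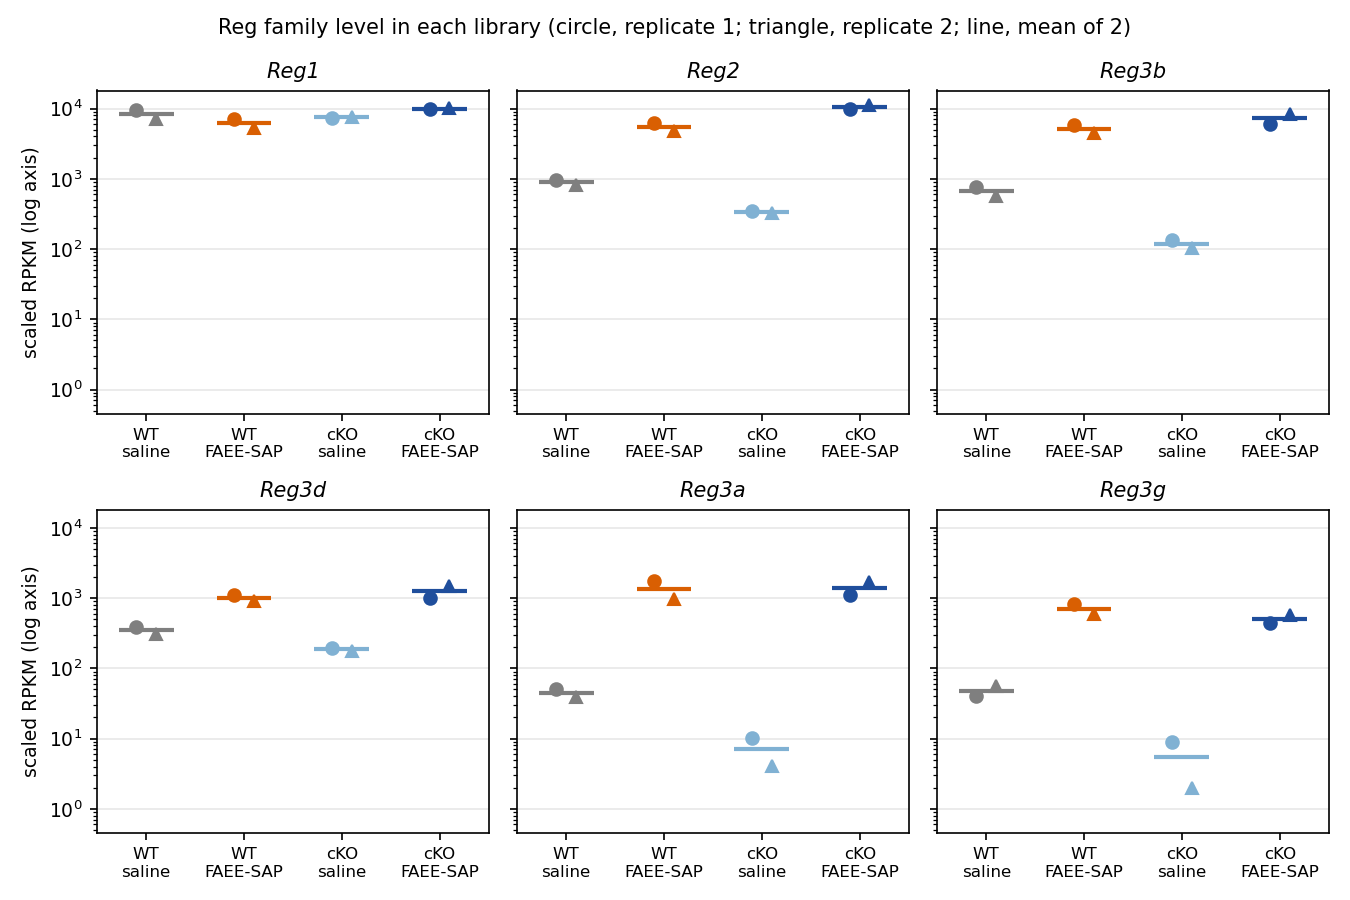
Scaled RPKM on a log axis for the 6 tested members in each library, with WT saline in gray, WT FAEE-SAP in orange, cKO saline in light blue, and cKO FAEE-SAP in dark blue. *Reg1* stays between 5368 and 10160, while *Reg3a* spans 4.12 to 1739 and *Reg3g* spans 1.99 to 814.7.

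FAEE-SAP was compared with saline in WT mice to ask how pancreatitis moved the family. *Reg2* and the 4 type III genes rose, and *Reg1* did not pass the test. The rise was 28.9-fold for *Reg3a* (log2 fold change 4.85, SE 0.47, adjusted p = 0.00208), 14.7-fold for *Reg3g* (3.87, SE 0.60, adjusted p = 0.0116), and 7.72-fold for *Reg3b* (2.95, SE 0.25, adjusted p = 0.00127), all from limma. *Reg2* rose 6.09-fold (2.61, SE 0.18, limma adjusted p = 0.000584) and *Reg3d* 2.89-fold (1.53, SE 0.23, limma adjusted p = 0.0095). Of the 6 members 5 were called higher, and of all genes tested 3.36% were called higher and 7.48% in either direction. The 5 did not overlap between treatments, which held for 29.1% of all genes tested in the higher direction. The median log2 fold change was 2.78 over the 6 members and 0.01 over all genes tested. *Reg3a* ranked 13 and *Reg3g* 24 from the top of the 11133 genes. After quantile normalization the log2 fold change was larger, at 3.88 for *Reg2*, 4.05 for *Reg3b*, 5.60 for *Reg3a*, 4.33 for *Reg3g*, and 2.05 for *Reg3d*. Where a library is left out, its group keeps 1 library, which is assumed to vary like those of the other groups. Without WT saline library 2 or without WT FAEE-SAP library 2, 3 members were called, with *Reg3d* and *Reg3g* not among them (limma adjusted p = 0.0632 and 0.051 without the first library, 0.0516 and 0.0737 without the second). *Reg3g* was also not called without library 1 of either group (limma adjusted p = 0.0808 for saline and 0.0506 for FAEE-SAP), and without WT saline library 1 its log2 fold change was 3.66. The log2 fold change of *Reg1* was -0.40 (SE 0.20, limma adjusted p = 0.230), and its direction turned after quantile normalization, to 1.57. On the deposited scale it was 0.92, below the median of 1.23 over all genes.

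In cKO mice the same comparison called few genes, and *Reg* genes made up a large share of them. The 5 members above were called higher, of 14 genes called higher (0.126% of those tested) and 15 in all (0.135%). *Reg3a* was 209-fold higher (log2 fold change 7.71, SE 0.47, limma adjusted p = 0.00131), the largest increase of all genes tested. *Reg3g* was 114-fold higher (6.83, SE 0.60, limma adjusted p = 0.00952) and *Reg3b* 61.0-fold higher (5.93, SE 0.25, limma adjusted p = 0.000198), the next in rank. *Reg2* rose 30.9-fold (4.95, SE 0.18, limma adjusted p = 0.000117) and ranked 6, and *Reg3d* rose 6.58-fold (2.72, SE 0.23, limma adjusted p = 0.00952). *Reg1* had a log2 fold change of 0.41 (SE 0.20, limma adjusted p = 0.507). All 6 members were higher in both cKO FAEE-SAP libraries than in both cKO saline libraries, as were 20.2% of genes tested. The median was 5.44 over the 6 members and -0.02 over all genes. Without cKO saline library 1 the log2 fold change was 7.89 for *Reg3g* and 8.35 for *Reg3a*, and 5.77 and 7.06 without library 2. Leaving out either saline library took *Reg3d* below the threshold (limma adjusted p = 0.051 and 0.0593), and leaving out either FAEE-SAP library did so for *Reg3g* (0.0811 and 0.0987). When the 4 cKO libraries were scaled and fitted alone, 3 members were called, and *Reg3d* (limma adjusted p = 0.0864) and *Reg3g* (0.151) were not.

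cKO was compared with WT in saline to ask whether the family differed before injury. No member passed the test, and limma called 0 of 11133 genes (0%), with 293 at an unadjusted p under 0.05 and 0 called by voom on reads worked out from the RPKM. The levels given above were nevertheless lower in both cKO libraries than in both WT libraries for 5 of the 6 members, all but *Reg1*, and this held for 13.6% of all genes tested. *Reg3g* had a log2 difference of -3.45 (SE 0.60, limma adjusted p = 0.671), the lowest of all genes tested. *Reg3a* had -2.76 (SE 0.47, limma adjusted p = 0.613), 3 from the bottom, and *Reg3b* had -2.49 (SE 0.25, limma adjusted p = 0.0912), 6 from the bottom. The value was -1.40 for *Reg2* (SE 0.18, limma adjusted p = 0.219), -0.87 for *Reg3d* (SE 0.23, limma adjusted p = 1), and -0.13 for *Reg1* (SE 0.20, limma adjusted p = 1). The median was -1.94 over the members and 0.02 over all genes. Without cKO saline library 1, *Reg3g* had a log2 difference of -4.51 and was called (limma adjusted p = 0.0344), the 1 gene called in that fit, in which the spread comes from the other 3 groups. There *Reg3a* had -3.40 (0.215), *Reg3b* -2.67 (0.213), and *Reg2* -1.43 (0.445). Without cKO saline library 2, *Reg3g* had -2.39 (limma adjusted p = 0.159) and *Reg3a* -2.12 (0.671). On the deposited scale, and also after quantile normalization, *Reg3b* and *Reg2* were called lower in cKO, among 3 genes called in each fit.

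After FAEE-SAP no member was called between the genotypes, against 2.65% of genes tested. *Reg2* was 1.93-fold higher in cKO (log2 difference 0.95, SE 0.18, limma adjusted p = 0.0405), just under the fold minimum. *Reg1* had a log2 difference of 0.68 (SE 0.20, limma adjusted p = 0.110), *Reg3b* 0.49 (SE 0.25, 0.296), *Reg3d* 0.31 (SE 0.23, 0.461), *Reg3a* 0.09 (SE 0.47, 0.935), and *Reg3g* -0.49 (SE 0.60, 0.681). *Reg1*, *Reg2*, and *Reg3b* were higher in both cKO libraries than in both WT libraries, as were 26.8% of genes tested, and *Reg3g* was lower, as were 25.1%. The 95% confidence intervals of the log2 difference ran from -1.90 to 0.92 for *Reg3g* and up to 1.18 for *Reg3a*, so differences of up to about 2-fold in *Reg3a* were not resolved. After quantile normalization *Reg1*, *Reg2*, *Reg3a*, *Reg3b*, and *Reg3d* had values below 0 instead, so the direction of these 5 turned with that scaling. They were below 0 as deposited too, but above the median of all genes on that scale. As deposited, the median log2 difference of all genes tested was -0.90 in this comparison, 1.23 for FAEE-SAP in WT, 0.57 for FAEE-SAP in cKO, and -0.26 between genotypes in saline.

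The difference between the treatment changes (cKO change minus WT change) passed the test for *Reg2*, at 2.34 on the log2 scale or 5.08-fold (SE 0.25, limma adjusted p = 0.0413). It was 1 of 8 genes called (0.0719% of those tested), of which 5 were higher (0.0449%). *Reg3b* had 2.98 (SE 0.35, limma adjusted p = 0.0567), *Reg3g* 2.96 (SE 0.85, 0.274), *Reg3a* 2.85 (SE 0.66, 0.202), *Reg3d* 1.19 (SE 0.32, 0.251), and *Reg1* 0.81 (SE 0.28, 0.333), and these 5 did not pass. The sizes depended on the scaling. *Reg2* had 1.31 after quantile normalization (limma adjusted p = 0.0253) and 1.68 as deposited (0.0429), and *Reg3b* had 1.74 (0.129) and 2.32 (0.0429). Those fits called 25 and 791 genes of 11133. *Reg3a* had 1.91 and 2.17, *Reg3g* 2.60 and 2.27, and *Reg3d* 0.51 and 0.52 in the same order, where the median of all genes as deposited was -0.63. The same value is the genotype difference after FAEE-SAP minus that in saline, so the lower saline levels in cKO enter it directly and are not a separate result. For *Reg2* the parts were 0.95 after FAEE-SAP and -1.40 in saline, and for *Reg3b* they were 0.49 and -2.49. The *Reg2* call was lost when any of the 8 libraries was left out, with values from 2.16 to 2.53 and limma adjusted p from 0.0503 to 0.194. It was also not called with no filter on low values (limma adjusted p = 0.186), with a pseudocount of 0.01 (0.0655), without the intensity trend (0.0889), or with replicate number as a block (0.107). Without cKO saline library 1 it was 2.37 (limma adjusted p = 0.0922), and no member was called. Without that library the value was 4.01 for *Reg3g* (limma adjusted p = 0.0709) and 3.49 for *Reg3a* (0.138), and without cKO saline library 2 it was 1.90 (0.270) and 2.21 (0.332).

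**Figure D2:**
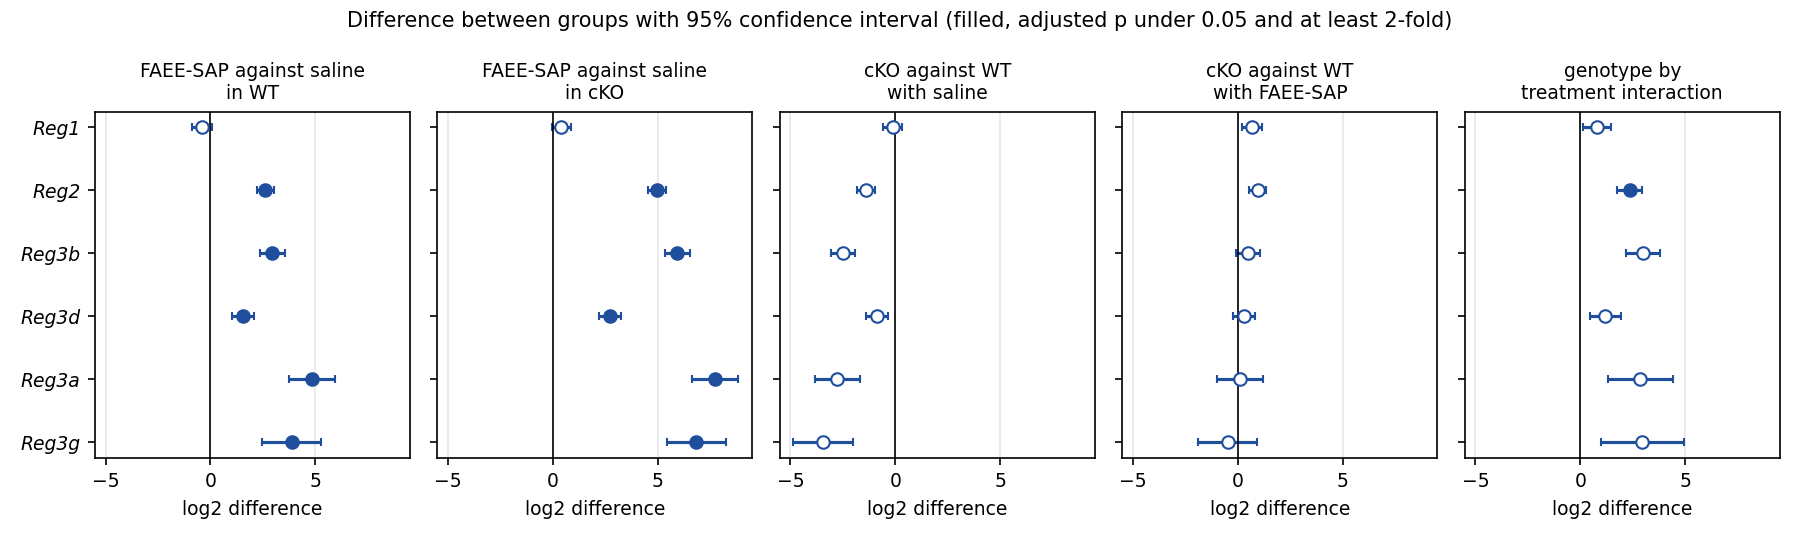
Log2 difference on the x axis for each tested member in 5 panels, 4 comparisons of groups and the genotype by treatment interaction, with bars for 95% confidence intervals from limma over 8 libraries. Filled points lie to the right of 0 for 5 members in both treatment panels, no point is filled in either genotype panel, and *Reg2* is filled in the interaction panel.

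A ratio within a library does not depend on the factor between libraries, so each member was also set against *Reg1*. Per 100 RPKM of *Reg1*, the saline libraries held 10.1 and 11.5 of *Reg2* in WT mice, and 4.68 and 4.29 in cKO mice. The FAEE-SAP libraries held 85.3 and 88.3 (WT) and 99.7 and 110 (cKO). Of *Reg3b* they held 8.02 and 8.08 (WT saline), 1.80 and 1.35 (cKO saline), 81.8 and 82.6 (WT FAEE-SAP), and 62.6 and 83.0 (cKO FAEE-SAP). Of *Reg3d* they held 4.01 and 4.39, 2.68 and 2.34, 15.3 and 16.8, and 10.4 and 14.8 in the same order. For these 3 genes both cKO saline libraries were below both WT saline libraries, and all FAEE-SAP libraries were above all saline libraries. Per 100 of *Reg1*, *Reg3a* had 0.535 and 0.551, 0.139 and 0.0537, 24.2 and 17.9, and 11.4 and 16.7 in that order. *Reg3g* had 0.423 and 0.789, 0.122 and 0.026, 11.3 and 11.1, and 4.48 and 5.55. Relative to *Reg1*, *Reg3a*, *Reg3d*, and *Reg3g* were lower in both cKO FAEE-SAP libraries than in both WT FAEE-SAP libraries, *Reg3g* by 2.25-fold between geometric means, and *Reg2* was 1.21-fold higher. On this measure the cKO change exceeded the WT change by 2.90-fold for *Reg2*, 4.52-fold for *Reg3b*, 4.19-fold for *Reg3a*, 4.56-fold for *Reg3g*, and 1.30-fold for *Reg3d*. Without cKO saline library 1 these became 3.03, 5.21, 6.73, 9.89, and 1.39, and without library 2 they were 2.78, 3.92, 2.61, 2.11, and 1.21. These are ratios of 2 genes and show unequal change only.

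**Figure D3:**
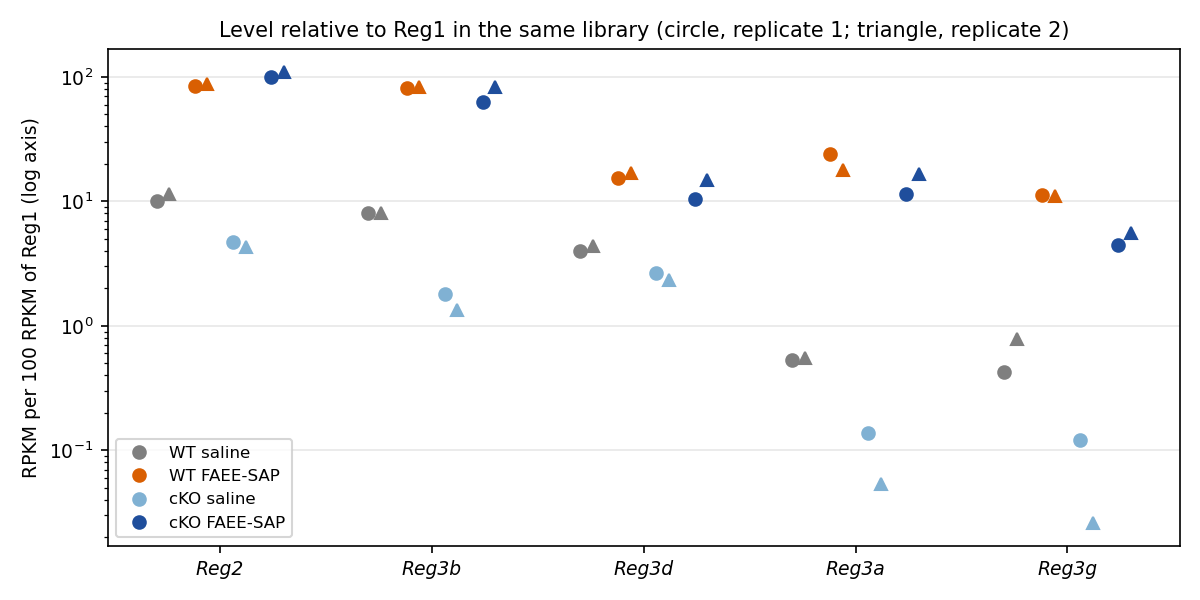
RPKM of 5 members per 100 RPKM of *Reg1* in the same library, on a log axis, by group. The light blue cKO saline points are lowest for every gene, from 0.026 for *Reg3g* to 4.68 for *Reg2*, and the WT FAEE-SAP points lie above the cKO FAEE-SAP points for *Reg3d*, *Reg3a*, and *Reg3g*.

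The make-up of the family changed with treatment. With saline, *Reg1* made up 81.2% and 79.8% of the summed *Reg* RPKM in WT mice and 91.4% and 92.5% in cKO mice. In FAEE-SAP its share was 31.5% and 31.6% (WT) and 34.6% and 30.3% (cKO). The type III genes together held at least 10.6% of it with saline in WT mice, and 4.34% and 3.49% in cKO mice. In FAEE-SAP their share was 41.7% and 40.5% (WT) and 30.8% and 36.4% (cKO). *Reg2* was 26.8% and 27.9% after FAEE-SAP in WT and 34.5% and 33.3% in cKO. Of all summed RPKM with saline, the whole family took 1.53% and 1.36% in WT mice and 0.894% and 0.949% in cKO mice. In FAEE-SAP it took 9.28% and 6.66% (WT) and 5.15% and 5.60% (cKO). These shares are of the deposited values, and the share of digestive enzymes given above moved in the opposite direction. *Reg3b* ranked 42 among all genes by RPKM in both WT saline libraries and 15 in both WT FAEE-SAP libraries, and moved from 125 and 132 to 24 and 19 in the cKO libraries.

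**Figure D4:**
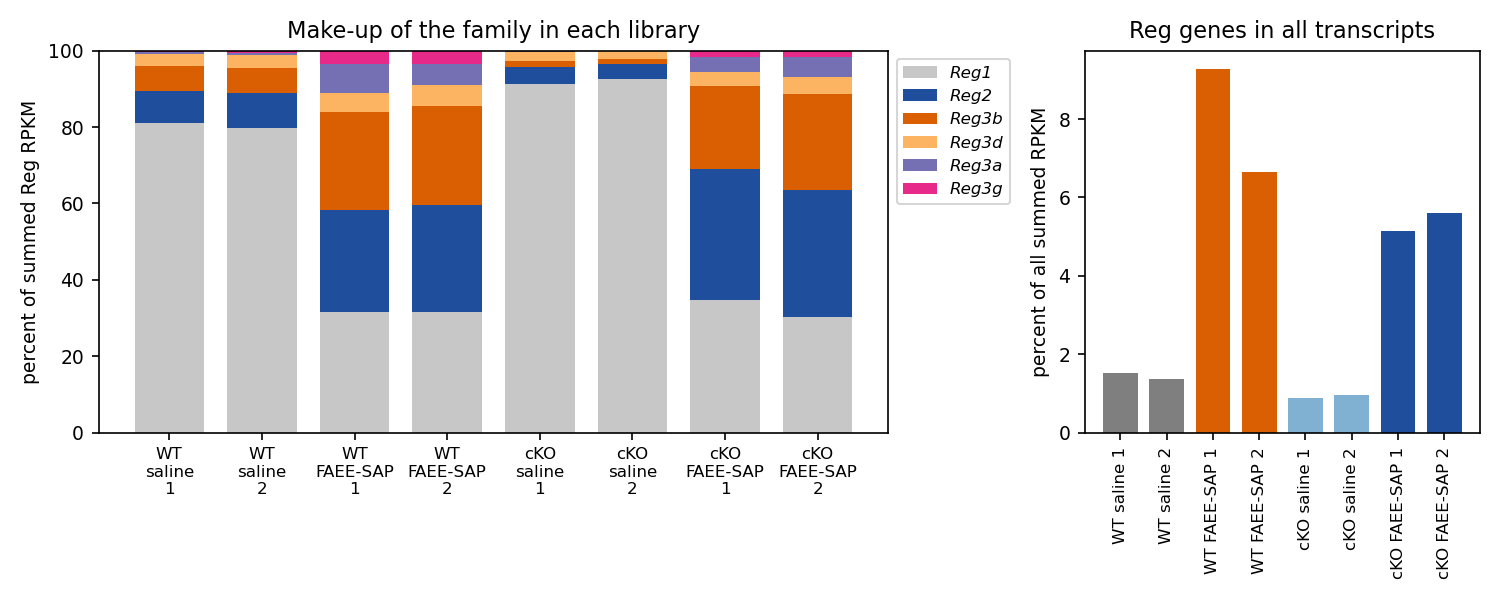
Left, percent of the summed *Reg* RPKM taken by each tested member in each library. Right, percent of all summed RPKM taken by the family, from 0.894% in cKO saline to 9.28% in WT FAEE-SAP, with both bars of each FAEE-SAP group above all saline bars.

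Profiles over the 8 libraries were compared as the root mean square difference of log2 values, each centered on its own mean, where 0 is an identical profile. The libraries fall into 4 groups, so likeness mostly reflects the group means. Among members, *Reg2* and *Reg3b* were closest (0.55), then *Reg3a* and *Reg3g* (0.65), and *Reg1* was 1.11 from *Reg3d* and 1.94 to 3.30 from the others. Among 7370 other genes of at least 1 scaled RPKM on average, *Timp1*, an inhibitor of metalloproteinases, was nearest to *Reg2* (0.55) and *Reg3b* (0.81). *Gm16174* (0.75) came next for *Reg2*, and *Lrg1* (0.95) for *Reg3b*. *Lrg1*, which codes for a secreted leucine-rich glycoprotein of the acute phase, was nearest to *Reg3a* (0.99) and *Reg3g* (1.18). *Timp1* (1.51) and *Lcn2* (1.56) followed for *Reg3a*, and *Timp1* (1.31) was also among the 3 nearest to *Reg3g*. *Mmp3* (0.40), *Ifitm3* (0.42), and *Sulf2* (0.44) were nearest to *Reg3d*, and *Uxt* (0.11), *Asah1* (0.12), and *Nceh1* (0.12) to *Reg1*. *Timp1* had 0.545 and 0.571 scaled RPKM (WT saline), 0.432 and 0.162 (cKO saline), 7.81 and 5.78 (WT FAEE-SAP), and 6.82 and 4.93 (cKO FAEE-SAP). *Lrg1* was at 10.7 and 11 in the WT saline libraries, at 5.08 and 7.62 in those of cKO, and at 250 and 394 (cKO) and 430 and 510 (WT) in FAEE-SAP.

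Genes of STAT3 signaling were read from a list of 22 STAT3 inducers, receptors, and targets, of which 15 were tested. In WT, 4 rose with FAEE-SAP and none fell, with *Socs3*, the feedback inhibitor of STAT3 signaling, at a log2 fold change of 3.24 (SE 0.49, limma adjusted p = 0.0101), *Stat3* at 1.77 (SE 0.44, limma adjusted p = 0.0464), and *Pim1*, a kinase gene induced by STAT3, at 1.08 (SE 0.20, limma adjusted p = 0.0217). The last was the oncostatin M receptor gene *Osmr* at 1.06 (SE 0.26, limma adjusted p = 0.0459). The list's median was 0.32, and 7.48% of all genes tested were called in that comparison. In cKO, where 0.135% of all genes were called, 0 of the 15 passed in limma, 0 had an unadjusted p under 0.05, and the median was 0.10. The counts of the 2 genotypes are therefore not compared. *Socs3* had 0.837 and 1.23 scaled RPKM (WT saline), 1.06 and 1.92 (cKO saline), 12.5 and 8.69 (WT FAEE-SAP), and 5.26 and 1.94 (cKO FAEE-SAP). In WT its treatment groups did not overlap, as held for 29.1% of all genes tested in the higher direction. In cKO the lower FAEE-SAP library (1.938) lay barely above the higher saline library (1.921), and 20.2% of genes separated in that direction. *Il22* was at 0 in all 8 libraries, and *Il6* was at most 0.248 scaled RPKM, in a WT FAEE-SAP library. No gene of the list was called between the genotypes under either treatment (median 0.06 with saline and -0.41 with FAEE-SAP) or for the interaction (median -0.24).

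Of 10 genes of the REG receptor and heparan sulfate synthesis, all tested, *Extl3* was called, and no other, a share near the 7.48% of all genes called with FAEE-SAP in WT. It had 13.9 and 12.3 scaled RPKM (WT saline), 14.0 and 13.4 (cKO saline), 6.51 and 3.36 (WT FAEE-SAP), and 11.3 and 8.76 (cKO FAEE-SAP). It fell with FAEE-SAP in WT (log2 fold change -1.46, SE 0.30, limma adjusted p = 0.0284) and was called in none of the other comparisons.

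The family was set beside other genes of secreted antimicrobial and mucosal proteins. Of 20, 14 were tested, and in WT 7 rose and 1 fell with FAEE-SAP (median 1.53), against 7.48% of all genes called. In cKO 1 rose (median 0.75), against 0.135% of all genes. *Lcn2*, the gene for the siderophore-binding lipocalin 2, rose by 7.97 in WT (SE 0.48, limma adjusted p = 0.0005) and by 5.06 in cKO (SE 0.48, limma adjusted p = 0.013). The calprotectin genes *S100a8* and *S100a9* rose by 5.79 (SE 0.46) and 5.12 (SE 0.46) in WT (limma adjusted p = 0.00106 and 0.00157). After FAEE-SAP, *Lcn2* was lower in cKO than in WT (-2.74, SE 0.48, limma adjusted p = 0.0354), as was *S100a8* (-2.30, SE 0.46, limma adjusted p = 0.0498), and the lectin gene *Zg16* was higher (2.42, SE 0.20, limma adjusted p = 0.00448), where 2.65% of all genes were called. The 5 *Reg* genes called with FAEE-SAP in both genotypes were not called between the genotypes after FAEE-SAP. With 2.65% of all genes called there, this does not set them apart. Of this list, 2 of the 14 tested genes were called lower, and *Reg3g* was lower in both cKO libraries. For the interaction no gene of this list was called (median -1.13).

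Markers of tissue state were read beside the family. Of 31 digestive enzyme genes tested, 28 fell with FAEE-SAP in WT (median -1.96), where 7.48% of all genes were called. In cKO, where 0.135% of all genes were called, 0 passed in limma (median -0.87) and 26 had an unadjusted p under 0.05, so the counts of the 2 genotypes are not compared. Of 13 injury genes, 2 rose and 1 fell in WT against the same 7.48%, with *Hmox1*, the stress-induced heme oxygenase, at 2.09, *Nupr1*, a stress gene first found in pancreatitis, at 1.64, and the trefoil gene *Tff2* at -2.51 (limma adjusted p = 0.00411, 0.00542, and 0.0005). None was called in cKO, against 0.135% of all genes. After FAEE-SAP 25 enzyme genes were higher in cKO than in WT (median 1.46), as was *Tff2* (1.54), and *Nupr1* was lower (-1.62), where 2.65% of all genes were called. For the interaction 1 of the 31 enzyme genes was called, against 0.0719% of all genes, the colipase gene *Clps* at 2.86 (SE 0.18, limma adjusted p = 0.00722). Summed acinar markers were 129300 to 145900 scaled RPKM (WT saline), 164800 to 172200 (cKO saline), 39700 to 44090 (WT FAEE-SAP), and 94170 to 96970 (cKO FAEE-SAP). Summed neutrophil and macrophage markers were 71.5 to 88.5, 83.2 to 87.9, 111.9 to 146.3, and 112.3 to 135.0 in the same order, and summed ductal markers were 50.2 to 53.8, 38.4 to 58.7, 93.3 to 96.5, and 76.7 to 81.9. Summed islet markers were 286.6 to 341.4, 304.2 to 374.0, 182.6 to 240.5, and 430.1 to 452.3. The neutrophil and macrophage sum mixed opposite genotype differences after FAEE-SAP, with 5 of its 9 tested genes positive and 4 negative. *S100a8* had 18.6 and 15.8 scaled RPKM (WT) and 4.39 and 2.63 (cKO), and *S100a9* had 33.1 and 29.2 and 12.1 and 7.62. The macrophage gene *C1qa* had 10.3 and 9.13 (WT) and 20.3 and 17.3 (cKO), and *C1qb* had 13.0 and 10.8 and 22.6 and 21.7. Between the genotypes in saline limma called no gene at all (0%), so counts over these lists carry nothing there. The median log2 differences of all lists but the lymphoid markers ran from -0.18 for ductal markers to 0.31 for digestive enzymes. Lymphoid markers had a median of -0.76, outside that range, and adipocyte and mesothelial or fibroblast markers had -0.06 and -0.05, inside it. The part of these cell types in the *Reg* levels was not tested.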

How the data were processed

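Pancreatic RNA was sequenced by the authors in 8 libraries after a directional, paired-end library preparation. Reads were filtered with fastp and mapped to GRCm38.p6 with CLC Genomics Workbench, and how expression was computed is not given in the sources used here. The authors deposited RPKM per gene and library, with no read counts. Genes were matched by symbol to GENCODE vM21 (46325 of 48709, 95.1%), and library totals were worked out from the smallest values, of which 84.5% to 85.8% under 20 reads were whole within 0.1 reads. Reads of matched genes summed to 100.3% to 105.7% of these totals, so reads per gene are approximate.

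RPKM was scaled by the median of ratios over all 8 libraries. Genes with a deposited RPKM of at least 0.5 in at least 2 libraries were fitted as log2(scaled RPKM + 0.1) in limma 3.58.1 (R 4.3.3), with 4 group means, 4 residual degrees of freedom, and an intensity trend. This scale understates the change of low genes. p-values were two-sided and adjusted by the Benjamini-Hochberg method over all genes tested. They measure only the spread between these libraries. The procedure was tested on simulated data. Tables and figures were made with Python 3.11.15, pandas 2.3.3, Biopython 1.88, and matplotlib 3.10.9.

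The members, gene lists, and tests were chosen with earlier results of these data known. The genes named are the 7 members, the 3 other genes nearest to each tested member in profile, up to 3 called genes of each list with the largest change, and *Pfkfb3*. One gene that the rule on profiles names is not reported here. Genes named beyond these, as markers of library 1 of cKO saline or for their known role (*Il6*, *Il22*, *Osmr*, *C1qa*, *C1qb*), were chosen after their values were seen. Alternatives covered the scaling, filter, pseudocount, variance trend, threshold, libraries fitted, replicate block, voom on reads worked out from the RPKM, and each library left out.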

Additional observations from a re-analysis of the deposited data

Results flagged for a closer look

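*Reg2* was flagged because its change with FAEE-SAP differed between the genotypes by a test of the difference itself, at 2.34 on the log2 scale (limma adjusted p = 0.0413 over 11133 genes). After quantile normalization the value was 1.31 (limma adjusted p = 0.0253), and as deposited it was 1.68 (0.0429). Those fits called 25 and 791 genes, against 8 in the main fit. The call was lost with any of the 8 libraries left out (limma adjusted p from 0.0503 to 0.194), with no filter on low values (0.186), with a pseudocount of 0.01 (0.0655), without the intensity trend (0.0889), and with replicate number as a block (0.107). The change was 4.95 in cKO and 2.61 in WT, and both libraries of each FAEE-SAP group were above both libraries of the matching saline group. Genotype cannot be told apart from the source of the mice here.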

How the results depend on the processing

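Of 654 member values under the alternatives, 592 kept their direction and their side of the threshold. With FAEE-SAP against saline in WT, 5 members were called under every alternative except quantile normalization, which gave 6, and leaving out a library, which gave 3 to 5, and *Reg1* turned to 0.92 as deposited and 1.57 with quantile normalization. In cKO the count was 5, but 6 as deposited, 3 with the cKO libraries fitted alone, and 4 to 5 with a library left out. As deposited, 7202 of 11133 genes were called in WT and 745 in cKO, against 833 and 15, so the member counts there stand on a larger background. Between genotypes in saline it was 0, but 2 as deposited, 2 with quantile normalization, 4 at an unadjusted p, and 0 to 1 with a library left out, and *Reg1* ran from -0.35 to 0.10 with a library left out, above 0 without WT saline library 1. Between genotypes after FAEE-SAP it was 0, but 1 with an RPKM minimum of 2, 1 with no fold minimum, and 0 to 1 with a library left out. There the values as deposited turned *Reg1* to -0.29, *Reg2* to -0.023, *Reg3a* to -0.88, *Reg3b* to -0.48, and *Reg3d* to -0.66, and quantile normalization turned them to -0.77, -0.28, -0.86, -0.85, and -0.44. With a library left out, *Reg3a* ran from -0.34 to 0.51, at -0.34 without WT FAEE-SAP library 2 and -0.22 without cKO FAEE-SAP library 2. For the interaction, 1 member was called, against 2 as deposited, 2 with an RPKM minimum of 2, 2 with a pseudocount of 1, and 2 with voom, 5 at an unadjusted p, 0 with no filter, 0 with a pseudocount of 0.01, 0 without the intensity trend, and 0 with each library left out, and *Reg1* turned to -0.59 with quantile normalization. As deposited, 3 genes were called between genotypes in saline, 4454 after FAEE-SAP, and 791 for the interaction, against 0, 295, and 8. With quantile normalization these were 3, 327, and 25, and at an unadjusted p they were 99, 876, and 782. For the interaction, an RPKM minimum of 2 called 35 of 6872 genes, a pseudocount of 1 called 24, and voom called 8. The member counts there stand on these backgrounds. The causes of the changes were not tested. With replicate number as a block, 0 members were called for the interaction and the counts in the other comparisons were the same. Deviations of same-numbered libraries correlated across genes at -0.52 to -0.17 between WT saline and each other group and at 0.18 to 0.40 among the other 3 groups. The labels do not say what the numbers share, so whether they pair libraries is not settled. A block with the WT saline numbers exchanged, chosen after seeing the data, called 2 members and 68 genes in all for the interaction, against 8 genes without a block and 0 with the numbers as labelled.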
